A study of Mus musculus with 30 samples.

Results

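The genes of MHC class II antigen presentation were followed in 2 parts of the brain, hippocampus and remainder, of aged mice that lacked B cells, carried Alzheimer's disease transgenes, had both or had neither. They were listed by symbol, with earlier results of these data known. The 7 genes were H2-Aa and H2-Ab1 (the alpha and beta chains of I-A), H2-Eb1 (the beta chain of I-E), Cd74 (the invariant chain), H2-DMa and H2-DMb1 (the chains of the peptide exchange factor H2-DM) and Ciita (the class II transactivator). They were measured by 8 probes, 2 of them for H2-Ab1, out of 55681 probes for 36717 genes and transcripts. The brighter H2-Ab1 probe was used throughout, and both H2-Ab1 probes moved together (r = 0.998 over the 15 hippocampal arrays and 0.995 over the 15 brain arrays). The array is annotated on the mm9 genome, that of C57BL/6J, and whether sequence differences between mouse haplotypes alter binding to these probes was not tested.

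RNA was taken from PBS-perfused hippocampi and from what was left of the brain (called brain below), and each sample was labelled with Cy3 and hybridized to its own Agilent array, giving 15 arrays per tissue. All mice were labelled C57BL/6j and 15 to 20 months old. WT mice (3 females) carried neither transgenes nor the deletion. JHT mice (2 females; B6.129P2-Igh-Jtm1Cgn/J) carry a germline deletion of the immunoglobulin JH segments and make no functional B cells. 3xTgAD mice (2 females, 3 males; B6;129-Psen1tm1Mpm with the APPSwe and tauP301L transgenes) carry a mutant presenilin at its own locus and transgenes that Thy1 sequences drive in neurons. 3xTgAD-BKO mice (2 females, 3 males, labelled JHT_3xTgAD) were bred by crossing 3xTgAD with JHT mice. The labels give one strain for all mice while the methods name the 3xTgAD line as B6;129, and Glo1 on chromosome 17 separated 3xTgAD mice from the other 3 genotypes in both tissues (values at the end). A difference in genetic background around chromosome 17, where 5 of the 7 genes lie, therefore cannot be told apart from the deletion between 3xTgAD-BKO and 3xTgAD mice, nor from the transgenes between 3xTgAD and WT mice. Only females of WT and JHT mice were analysed, so these genotypes were compared in females. The deletion removes B cells from the whole body from birth, and brain tissue does not show whether a given mouse lacked them. A sample is called here by the mouse number of its label, which recurs in both tissues, and the labels do not say that a shared number marks the same animal.

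MHC class II molecules are pairs of an alpha and a beta chain that carry peptides of ingested proteins to the cell surface for CD4 T cells. The invariant chain Cd74 holds the new pair and guides it to the endosome, where H2-DM removes the last fragment of Cd74 and loads the peptide. Ciita does not bind DNA itself and is recruited to an assembly of RFX, CREB and NF-Y on the class II promoters, and interferon gamma induces it in cells that do not make it at rest. In the brain, macrophages and dendritic cells of the meninges, the perivascular space and the choroid plexus are the usual carriers of class II at rest, and microglia take it up when activated. C57BL/6 mice have the b haplotype, in which the I-E alpha gene H2-Ea is not expressed, so H2-Eb1 RNA in this strain has no I-E partner. H2-Ea was not measured here.

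The promoters are shown because the class II genes are classically switched on together through shared promoter boxes. RefSeq promoter windows (GRCm38.p6, 250 bases before to 50 after the start) held 4 of the 7 genes, namely H2-Aa, H2-Eb1, H2-DMa and H2-DMb1. The stretch from -100 to -31 relative to the start is printed 5′ to 3′ on the strand of the gene for these genes and for the H2-DO chain H2-Ob. Capitals mark ATTGG, the letters of the NF-Y or Y box (CCAAT on the other strand), and AGCAAC, a core of the X box that RFX binds. Both were searched on both strands, and a match of one may share bases with a match of the other.
H2-Aa, chr17:34287854-34287923, minus strand: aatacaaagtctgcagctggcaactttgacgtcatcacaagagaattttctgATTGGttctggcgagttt
H2-Eb1, chr17:34305767-34305836, plus strand: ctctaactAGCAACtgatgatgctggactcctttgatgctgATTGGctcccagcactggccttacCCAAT
H2-DMa, chr17:34122732-34122801, plus strand: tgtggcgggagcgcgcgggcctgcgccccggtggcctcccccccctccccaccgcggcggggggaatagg
H2-DMb1, chr17:34153091-34153160, plus strand: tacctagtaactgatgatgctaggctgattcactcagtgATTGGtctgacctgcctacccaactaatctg
H2-Ob, chr17:34238805-34238874, plus strand: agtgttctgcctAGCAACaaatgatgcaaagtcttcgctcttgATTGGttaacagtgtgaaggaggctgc

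H2-Aa, H2-Eb1 and H2-DMb1 hold ATTGG on the gene's strand, beginning at -48, -59 and -61 from the start. H2-Eb1 also holds AGCAAC at -92 and a second ATTGG on the opposite strand at -35. H2-DMa has 2 windows in the table, and ATTGG stands only in the second, at -198, outside the stretch shown. Of 32851 windows of 300 bases, 37.4% hold ATTGG, 14.8% hold AGCAAC and 1.92% hold AGCAAC followed by ATTGG on one strand. H2-Eb1 is in the last group, as are H2-Ob (AGCAAC at -88, ATTGG at -57) and H2-Oa, the other chain of H2-DO (-77 and -43). A match is a description of the letters and not of binding.

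The 5 H2 genes lie in 1 cluster on chromosome 17 (GRCm38.p6). H2-DMa runs from 34119693 to 34139101, H2-DMb1 from 34153191 to 34160229, H2-Ab1 from 34263227 to 34269418, H2-Aa from 34282744 to 34287823 and H2-Eb1 from 34305867 to 34316674. Cd74 lies on chromosome 18 (60803849 to 60812652) and Ciita on chromosome 16 (10480014 to 10531064). Values below are log2 signals, the log2 of the processed spot intensity after quantile normalization over the 30 arrays. A difference of 1 is a factor of 2 in signal, and levels of different genes are not comparable because each probe has its own brightness.

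Tissue markers separated the tissues as labelled. The mean log2 signal of 6 hippocampal markers such as Prox1 was 9.25 to 10.19 in the hippocampus and 7.15 to 7.62 in the brain samples, and that of 8 markers of other regions such as Drd1 was 6.25 to 7.32 and 11.07 to 11.57. Between 52.6% and 62.5% of probes stood well above background, with no saturated spot. Arrays were spread over 4 slides, and hippocampal arrays 0 to 7 shared slide 1 while 8 to 14 shared slide 2. Brain array 0 was also on slide 2, brain arrays 1 to 8 on slide 3 and 9 to 14 on slide 4. In the hippocampus, 4 arrays stood apart in the choroid plexus gene Ttr, with log2 signals of 18.28 (3xTgAD male 4), 18.19 (3xTgAD-BKO female 7), 18.05 (JHT 13) and 17.65 (JHT 14), against at most 14.44 in the other hippocampi. Their mean over 8 choroid plexus epithelium markers was 12.51 to 13.41, against 6.70 to 9.43 in the others. Comparisons of 3xTgAD-BKO with 3xTgAD hippocampi, the tissue comparison and the correlations among the class II genes are also given without these samples. Comparisons that need JHT hippocampi lose that group without them. A dissection that took in more choroid plexus cannot be told apart here from more RNA per cell. Hippocampal array 0 (3xTgAD-BKO male 0) also stood apart, with 432 outlier spots against at most 160 on any other array, the lowest mean of hippocampal markers (9.25, the others from 9.65), the highest of microglia markers (13.26, the others up to 12.73) and a log2 signal of 6.48 for Lck against at least 8.36 on all others. Values without it are given below as well. More generally, in bulk tissue fewer cells of a type and less RNA per cell cannot be told apart.

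The I-A chains, H2-Eb1 and Cd74 were the variable members. In the hippocampus the highest and lowest sample differed 12.2-fold for H2-Ab1, 14.6-fold for H2-Eb1 and 17.4-fold for Cd74, and no fold is given for H2-Aa, whose lowest sample was not well above background. In the brain the spread was 5.45-fold for H2-Aa, 4.51-fold for H2-Ab1, 4.54-fold for H2-Eb1 and 6.48-fold for Cd74. Sample 0 was the highest for these genes in both tissues, so the folds rest in part on it. Its log2 signal was 11.72 for hippocampal H2-Eb1, with 10.90 next, and 11.37 for Cd74 in the brain, with 10.60 next. H2-DMa spread 1.60-fold in the hippocampus and 1.54-fold in the brain, and H2-DMb1 2.36- and 1.29-fold. Ciita has no fold for the same reason as H2-Aa, since it was a dim probe, well above background on 12 of 15 hippocampal and 7 of 15 brain arrays. H2-Aa was well above background on 9 of 15 hippocampal and all 15 brain arrays, and the other 5 genes on every array.

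In the hippocampus of 3xTgAD females, the log2 signals of H2-Ab1 were 7.87 and 8.11, and in 3xTgAD-BKO females 8.68 and 10.49. The 3xTgAD males had 7.85, 10.33 and 7.71, and the 3xTgAD-BKO males 11.33, 9.21 and 8.99. WT females had 9.53, 8.02 and 7.95, and JHT females 10.46 and 10.71. Every sample with the JHT deletion lay above 6 of the 8 samples with an intact locus, and the 2 exceptions among the latter were 3xTgAD male 4 (10.33) and WT female 10 (9.53).

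H2-Eb1 followed the same order, at 7.91 and 8.23 in 3xTgAD females and 8.84 and 10.90 in 3xTgAD-BKO females. It was 7.86, 10.44 and 7.88 in 3xTgAD males and 11.72, 9.17 and 9.48 in 3xTgAD-BKO males. WT females had 9.52, 8.30 and 8.22 and JHT females 10.56 and 10.87. The highest of the 15 was 3xTgAD-BKO male 0, as for H2-Ab1.

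H2-Aa was not well above background in several hippocampi. Its log2 signal was 4.22 and 3.80 in 3xTgAD females, 5.65 and 7.49 in 3xTgAD-BKO females, 3.94, 7.21 and 3.61 in 3xTgAD males and 8.04, 5.41 and 5.85 in 3xTgAD-BKO males. WT females had 5.97, 3.24 and 3.65 and JHT females 7.19 and 7.48. H2-Aa stood well above background in 7 of 7 hippocampi with the JHT deletion and in 2 of 8 without it, again 3xTgAD male 4 and WT female 10. Differences of H2-Aa from intact hippocampi given below therefore rest in part on values at background, and their size is uncertain.

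Cd74, the chaperone of the class II pair, was 7.07 and 6.41 in 3xTgAD females, 8.35 and 10.24 in 3xTgAD-BKO females, 6.96, 9.95 and 6.87 in 3xTgAD males and 10.53, 7.64 and 8.47 in 3xTgAD-BKO males. WT females had 8.77, 6.70 and 7.51 and JHT females 9.50 and 9.87. These groups of sample values overlapped between 3xTgAD and 3xTgAD-BKO males and did not overlap in the females.

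**Figure D1:**
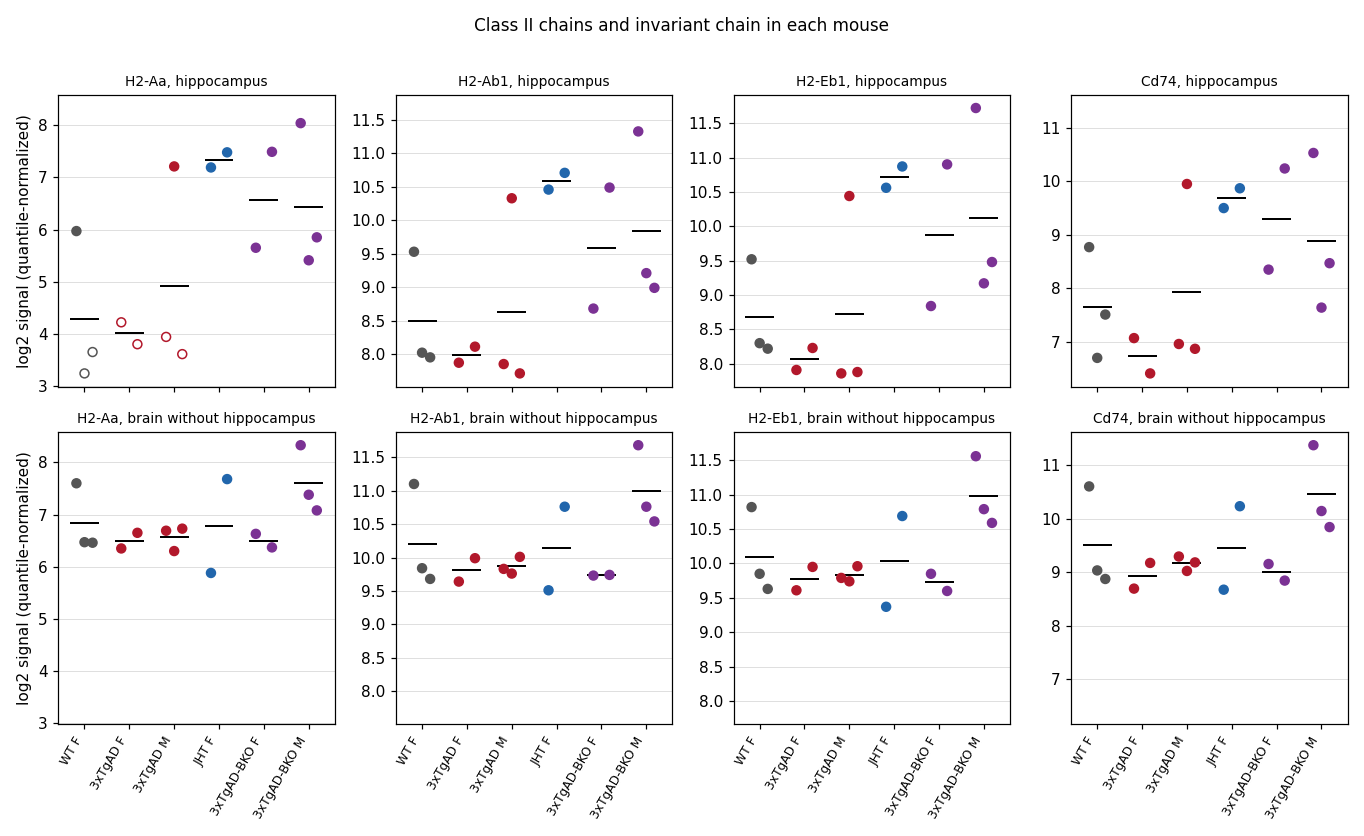
Log2 signal (quantile-normalized, y axis) of H2-Aa, H2-Ab1, H2-Eb1 and Cd74 for hippocampi (top) and the remaining brain (bottom), by genotype and sex (x axis). Each point is 1 sample, bars are group means, and open points mark spots not well above background. Among hippocampi the 3xTgAD males hold 1 sample far above the others (H2-Ab1 10.33 against 7.85 and 7.71), and in the brain the 3xTgAD-BKO males lie above the 3xTgAD males.

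The first question was whether loss of B cells changed class II genes in the 3xTgAD brain. In hippocampi of females, all 4 of these genes were higher on average in 3xTgAD-BKO than in 3xTgAD mice, but with 2 samples in each group no difference passed the test. H2-Ab1 differed by 1.59 (SE 1.03, limma adjusted p = 0.49), H2-Eb1 by 1.80 (SE 1.06, adjusted p = 0.438) and Cd74 by 2.56 (SE 1.19, adjusted p = 0.32) on the log2 scale. H2-Aa was at least 4.51-fold higher, since neither 3xTgAD female was well above background (limma adjusted p = 0.366). The groups did not overlap for these 4 genes, which was also so for 24.6% of all genes in that direction.

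None of the 7 genes was called between these females at an adjusted p under 0.05, where 0.37% of all genes were, nor did any reach an unadjusted p under 0.05, as 16.4% of all genes did. The methods' t-test called none either. Changes of H2-DMa and H2-DMb1 were 0.12 each, and that of Ciita was -0.05. The median change of the 7 was 1.59, beside -0.02 over all genes. Without female 7, one of the Ttr-high samples, H2-Ab1 differed by 0.69, H2-Eb1 by 0.77 and Cd74 by 1.61. H2-Aa then differed by 1.64 in place of 2.56, with neither 3xTgAD female well above background. The bound given for H2-Aa thus rests in part on female 7.

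In males, H2-Ab1 differed between 3xTgAD-BKO and 3xTgAD hippocampi by 1.21 (SE 0.84, limma adjusted p = 0.463), H2-Eb1 by 1.40 and Cd74 by 0.95. H2-Aa differed by 1.51, with 1 of 3 samples of the 3xTgAD group well above background. None of the 7 genes was called (0.847% of all genes were), and 0 of the 7 had an unadjusted p under 0.05 (18.2% of all genes did). For each of the 7 the males overlapped, where 11.2% of all genes lay higher and 9.19% lower without overlap. Single samples carried much of the spread. Without the Ttr-high 3xTgAD male 4, H2-Ab1 differed by 2.06, H2-Eb1 by 2.25 and Cd74 by 1.96. Without 3xTgAD-BKO male 0, H2-Ab1 differed by 0.47, H2-Aa by 0.71, H2-Eb1 by 0.60 and Cd74 by 0.13. No gene of the 7 was called in either case. Slide 1 holds all 3 males of the 3xTgAD group and only male 0 of the 3xTgAD-BKO group.

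Over both sexes with sex as a covariate (5 against 5), the differences were 1.93 for H2-Aa (SE 0.81, limma adjusted p = 0.479, with 1 of 5 samples of the 3xTgAD group well above background), 1.37 for H2-Ab1 (SE 0.62, 0.55), 1.56 for H2-Eb1 (SE 0.64, 0.455) and 1.59 for Cd74 (SE 0.76, 0.579). H2-Aa, H2-Ab1 and H2-Eb1 had an unadjusted p under 0.05, as did 9.03% of all genes, and none of the 7 passed after adjustment, against 0.869% of all genes. Without the 4 Ttr-high hippocampi the differences were 1.57 for H2-Ab1, 1.73 for H2-Eb1 and 1.84 for Cd74, a comparison added after the values were seen. Without male 0 they were 1.55 for H2-Aa, 0.98 for H2-Ab1, 1.14 for H2-Eb1 and 1.23 for Cd74. The differences between females and males in this change were 0.38 to 1.60 for H2-Ab1, H2-Eb1 and Cd74 (lowest limma adjusted p = 0.6), with none of the 7 called against 0.0245% of all genes and none at an unadjusted p under 0.05 against 21.2%. Females and males of the 3xTgAD and 3xTgAD-BKO genotypes differed by -0.46 to -0.39 in the 4 genes, with none of the 7 called against 0.0381% and none at an unadjusted p under 0.05 against 5.82%.

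JHT and WT females ask the same question without the transgenes. In the hippocampus both JHT samples lay above all 3 WT samples for H2-Aa, H2-Ab1, H2-Eb1, Cd74 and H2-DMb1, and below them for Ciita. Separation in the upward direction was found for 13% of all genes and in the downward direction for 16.8%. H2-Ab1 differed by 2.09 (SE 0.94, 95% interval 0.01 to 4.16, limma adjusted p = 0.636), H2-Aa by 3.04 (95% interval 0.38 to 5.71, adjusted p = 0.607, with 1 of 3 WT samples well above background), H2-Eb1 by 2.03 (adjusted p = 0.65) and Cd74 by 2.02 (adjusted p = 0.703).

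H2-DMb1, the beta chain of H2-DM, was 9.11 and 9.05 in JHT and 8.34, 8.08 and 8.35 in WT females, a difference of 0.82 (SE 0.34, limma adjusted p = 0.611). Ciita was 4.88 and 4.38 against 5.50, 5.35 and 5.64, a difference of -0.87 (SE 0.27, adjusted p = 0.522), opposite in sign to the class II chains. JHT 14 was not well above background for Ciita. None of the 7 genes was called, against 0.0926% of all genes, and 4 had an unadjusted p under 0.05 (H2-Aa, H2-Ab1, H2-DMb1 and Ciita), against 7.83% of all genes.

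Both JHT hippocampi were Ttr-high and none of the WT hippocampi was, so that this comparison cannot be made without those samples. With the mean of the 8 choroid plexus markers as a covariate, the differences became 0.44 for H2-Aa, -0.07 for H2-Ab1, -0.37 for H2-Eb1 and -0.56 for Cd74, with no call. The part of choroid plexus RNA in the JHT difference cannot be told apart from that of the genotype in these 5 samples.

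3xTgAD females did not differ from WT females in these genes beyond the error. In the hippocampus H2-Ab1 differed by -0.51 (95% interval -2.58 to 1.57), and H2-Ab1, H2-Eb1 and Cd74 ran from -0.92 to -0.51 (lowest limma adjusted p = 0.876). In the brain these 3 genes and H2-Aa ran from -0.56 to -0.32 (lowest adjusted p = 0.848). None of the 7 was called, against 0.746% of all genes in the hippocampus and 1.15% in the brain, with none at an unadjusted p under 0.05 (12% and 11% of all genes). Both 3xTgAD hippocampi lay above the WT hippocampi in H2-DMb1 (difference 0.35, adjusted p = 0.808), a separation found for 18.8% of all genes. In the brain the interval for H2-Ab1 was -1.45 to 0.67. This comparison uses the same WT samples as that of JHT mice, and the same 3xTgAD females as the comparison with 3xTgAD-BKO. The 3xTgAD females were on slide 1 (hippocampus) and slide 3 (brain), and the WT females on slides 2 and 4. Slide therefore cannot be told apart from genotype in this comparison.

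Between 3xTgAD-BKO and JHT females, which share the deletion, the hippocampal differences were -0.84 for H2-Eb1, -0.76 for H2-Aa and -0.39 for Cd74, with the lowest for H2-Ab1 (95% interval -3.27 to 1.27, limma adjusted p = 0.838), and none of the 7 was called against 0.229% of all genes. Ciita alone had an unadjusted p under 0.05 (9.78% of all genes), with a difference of 0.66, and it and H2-DMa (0.23) were higher without overlap, as were 21.1% of all genes. In the brain the 4 genes ran from -0.46 to -0.28, with no call against 0.667% of all genes. None of the 7 had an unadjusted p under 0.05 there, against 10.6% of all genes. These genotypes were on different slides in both tissues, so slide cannot be told apart from genotype. Both JHT hippocampi were Ttr-high, and so was 3xTgAD-BKO female 7 but not female 6.

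The deletion was then taken across all genotypes, as the mean of its effect in 3xTgAD females, 3xTgAD males and females without transgenes. This comparison was added after the values were seen and shares its samples with those above. In the hippocampus the lowest, median and highest H2-Ab1 signals were 8.68, 10.46 and 11.33 with the deletion (n = 7) and 7.71, 7.98 and 10.33 without it (n = 8). For Cd74 they were 7.64, 9.50 and 10.53 against 6.41, 7.02 and 9.95. The groups overlapped through the same 2 intact samples, 3xTgAD male 4 and WT female 10.

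H2-Aa differed by 2.37 (SE 0.70, limma adjusted p = 0.238, with 2 of 8 intact samples well above background), H2-Ab1 by 1.63 (SE 0.54, 0.323), H2-Eb1 by 1.74 (SE 0.56, 0.297) and Cd74 by 1.84 (SE 0.63, 0.344). These 4 had an unadjusted p under 0.05, as did 8.92% of all genes, and none of the 7 was called, against 0.613% of all genes. Within slide 1 the difference in H2-Ab1 was 1.79 (3 against 5 samples) and within slide 2 it was 1.35 (4 against 3). With the choroid plexus markers as a covariate it was 1.03, and with the T cell markers 1.01. Without 3xTgAD-BKO male 0 the differences were 2.11 for H2-Aa, 1.38 for H2-Ab1, 1.48 for H2-Eb1 and 1.57 for Cd74.

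H2-DMa and Ciita did not share this pattern. H2-DMa had a median of 9.82 with the deletion and 9.76 without it in the hippocampus, a difference of 0.02 (95% interval -0.23 to 0.27). Ciita had medians of 5.05 and 5.35 and a difference of -0.31 (95% interval -0.65 to 0.04). H2-DMb1 lay between, with medians of 9.05 and 8.35 and a difference of 0.38 (95% interval -0.05 to 0.82).

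**Figure D2:**
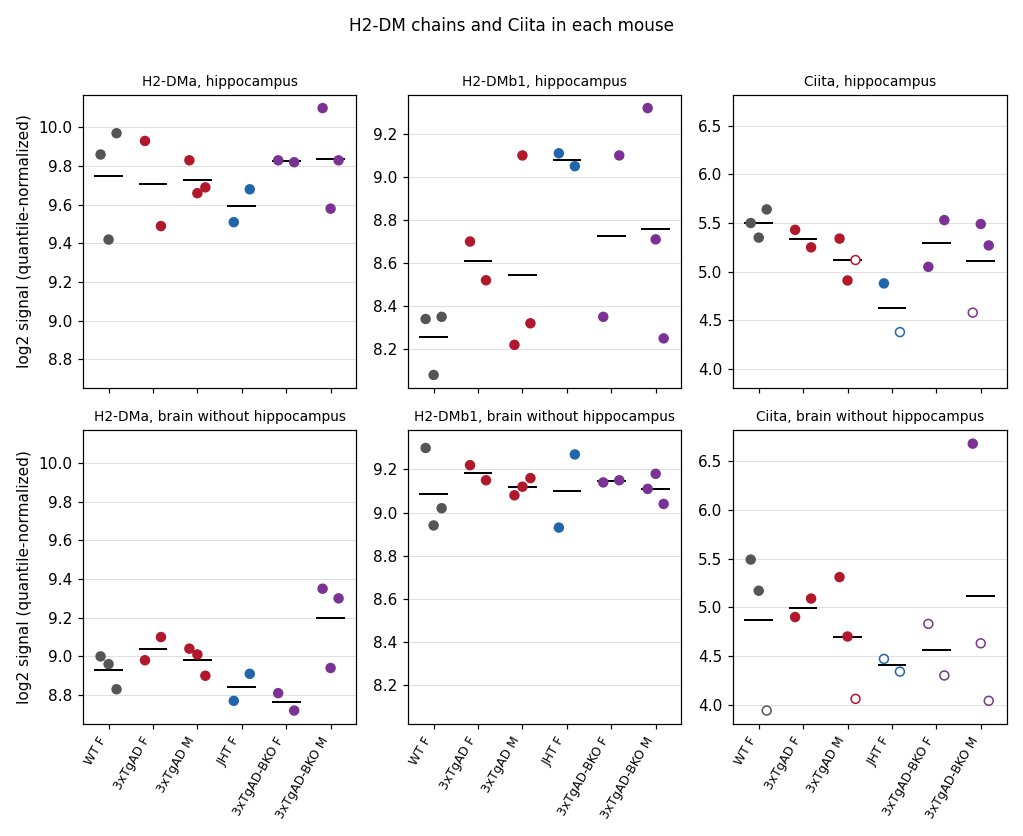
Log2 signal (quantile-normalized, y axis) of H2-DMa, H2-DMb1 and Ciita for hippocampi (top) and the remaining brain (bottom), by genotype and sex (x axis), with 1 point per sample, bars at group means and open points where the probe was not well above background. H2-DMa lies higher in every hippocampal than in every brain sample, and 8 of 15 brain values of Ciita are open points.

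In the brain the deletion was not accompanied by the same order of samples. The log2 signals of H2-Ab1 were 9.64 and 9.99 in 3xTgAD females, 9.73 and 9.74 in 3xTgAD-BKO females, 9.51 and 10.76 in JHT females and 11.10, 9.84 and 9.68 in WT females. The 3xTgAD males had 9.83, 9.76 and 10.01 and the 3xTgAD-BKO males 11.68, 10.76 and 10.54. All 3 males of the 3xTgAD-BKO group lay above all 3 of the 3xTgAD group, while the females overlapped.

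Cd74 was 8.69 and 9.17 in 3xTgAD females and 9.15 and 8.84 in 3xTgAD-BKO females. It was 9.29, 9.02 and 9.18 in 3xTgAD males and 11.37, 10.14 and 9.84 in 3xTgAD-BKO males. WT females had 10.60, 9.03 and 8.87 and JHT females 8.67 and 10.23. The 4 highest samples were 3xTgAD-BKO male 0, WT 10, JHT 14 and 3xTgAD-BKO male 8, as for H2-Ab1.

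Among males, 3xTgAD-BKO brains were higher than 3xTgAD brains by 1.13 for H2-Ab1 (SE 0.43, limma adjusted p = 0.343), 1.14 for H2-Eb1 (SE 0.39, 0.277), 1.28 for Cd74 (SE 0.54, 0.405) and 1.02 for H2-Aa (SE 0.48, 0.448). Samples did not overlap for these 4 genes, which was so for 7.75% of all genes in that direction. H2-Ab1, H2-Eb1 and Cd74 had an unadjusted p under 0.05, against 11.5% of all genes, and none of the 7 was called, against 0.961%. Without male 0 the differences were 0.78 for H2-Ab1, 0.85 for H2-Eb1, 0.82 for Cd74 and 0.66 for H2-Aa. On slide 3, which holds the 3 males of the 3xTgAD group and male 8 of the 3xTgAD-BKO group, H2-Ab1 was 10.76 in male 8 against at most 10.01.

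Among females the brain differences between 3xTgAD-BKO and 3xTgAD were close to 0, at -0.08 for H2-Ab1 (95% interval -1.24 to 1.08), -0.06 for H2-Eb1, 0.00 for H2-Aa and 0.06 for Cd74, and none of the 7 was called (1.12% of all genes) or had an unadjusted p under 0.05 (12.9%). H2-DMa (-0.27, adjusted p = 0.418) and Ciita (at least 1.17-fold lower) lay lower without overlap, as did 22.6% of all genes. Over both sexes they were 0.61 to 0.79 (lowest limma adjusted p = 0.421), with no call against 2.16% of all genes and none at an unadjusted p under 0.05 against 13.6%. The difference between the sexes was -1.22 to -1.03 (lowest adjusted p = 0.623 for these 4), with no call against 0.101% of all genes. H2-DMa alone had an unadjusted p under 0.05 in that test (-0.48, SE 0.17), as did 8.75% of all genes. Females and males differed by -0.84 to -0.58 in the 4 genes, with none of the 7 called against 0.139% and none at an unadjusted p under 0.05 against 9.38%. JHT and WT brains differed by -0.07 to -0.05 in these genes (H2-Ab1 95% interval -1.13 to 0.98), with no call against 0.161% of all genes and none at an unadjusted p under 0.05 against 6.31%. Over all genotypes the deletion shifted them by 0.32 to 0.43 (lowest adjusted p = 0.597), with no call against 1.62% and none at an unadjusted p under 0.05 against 13%.

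**Figure D3:**
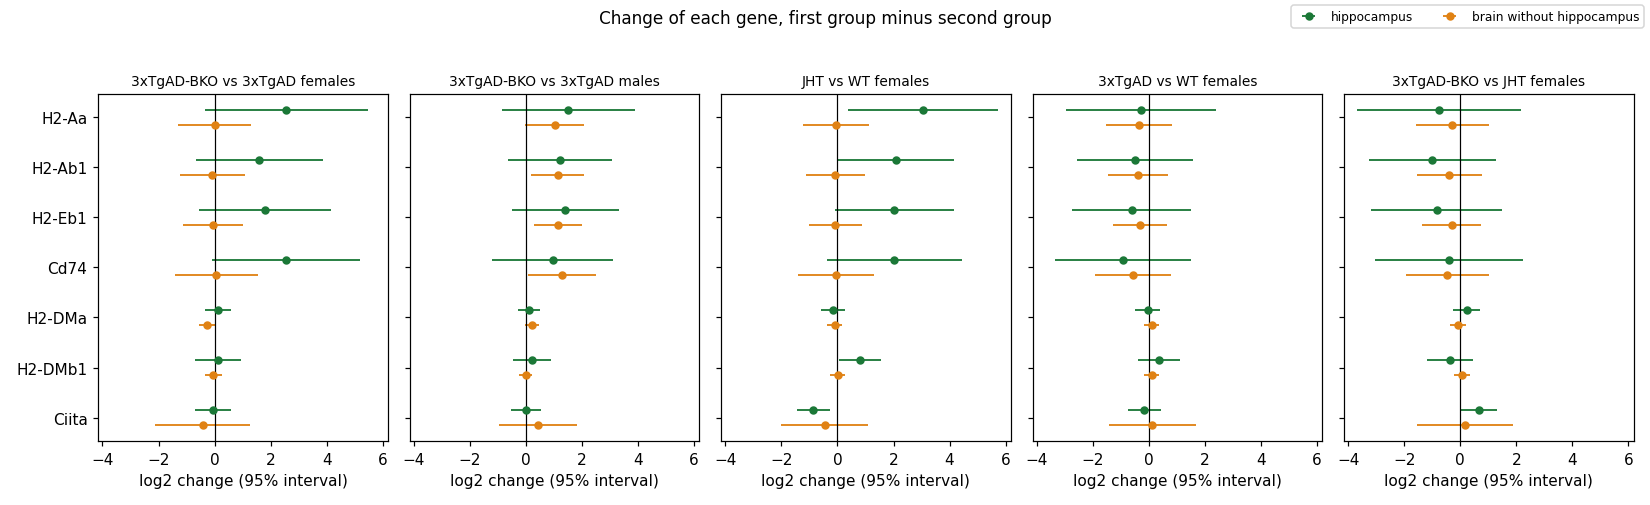
Log2 change of each of the 7 genes (x axis, points, with limma's 95% interval as bars) in 5 comparisons within the hippocampus (green) and within the remaining brain (orange), first group minus second group. In the hippocampus the points of H2-Aa, H2-Ab1, H2-Eb1 and Cd74 lie above 0 in the 3 comparisons of mice with and without the deletion, with wide intervals (0.01 to 4.16 for H2-Ab1 in JHT against WT), while those of H2-DMa lie between -0.16 and 0.23.

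The tissues were compared directly over the means of the 6 groups of genotype and sex. H2-DMa was higher in the hippocampus by 0.78 (SE 0.07, limma adjusted p = 4.86e-09), and all 15 hippocampal values (9.42 to 10.10) lay above all 15 brain values (8.72 to 9.35), a separation found for 3.83% of all genes. H2-DMb1, its partner chain, was lower in the hippocampus by a change of -0.46 (SE 0.11, adjusted p = 0.000947). The 2 chains of one heterodimer differed in opposite directions. Apart from brain array 0, hippocampal and brain arrays were on different slides, so slide cannot be told apart from tissue in these results. On slide 2, brain sample 0 had 9.35 for H2-DMa and 9.11 for H2-DMb1. The hippocampi on that slide had 9.42 to 9.97 and 8.08 to 9.11.

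H2-Aa changed by -1.21 (SE 0.39, limma adjusted p = 0.0135), H2-Ab1 by -0.94 (SE 0.31, 0.016) and Cd74 by -1.05 (SE 0.37, 0.0225), all lower in the hippocampus. H2-Aa was well above background on only 9 of 15 hippocampal arrays, so the size of its tissue differences here and below is uncertain. Normexp background correction gave -0.48 for it. H2-Eb1 (-0.71, adjusted p = 0.0663) and Ciita (0.39, adjusted p = 0.157) were not called. In all, 1 of 7 genes was higher and 4 of 7 were lower, where 51.1% of all genes were called, 25.1% higher and 26% lower in the hippocampus. An unadjusted p under 0.05 was reached by 6 of 7, against 55.3% of all genes. The brain samples also held more choroid plexus markers than most hippocampi, with list means of 10.48 to 11.61, and their part in the difference was not tested. With the slide as a random block only H2-DMa (0.70, adjusted p = 0.000104) and H2-DMb1 (-0.52, adjusted p = 0.0379) were called. Without 3xTgAD-BKO female 6 these same 2 were called, and without JHT 14 they were called with H2-Aa. All 7 were called without 3xTgAD-BKO male 0.

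Without the 4 Ttr-high hippocampi no JHT hippocampus is left, and over the 5 other groups the tissues differed by 0.80 in H2-DMa, -0.68 in H2-DMb1, -1.97 in H2-Aa, -1.57 in H2-Ab1, -1.37 in H2-Eb1 and -1.70 in Cd74, with these 6 genes called. With all arrays the same 5 groups gave 0.79, -0.55, -1.56, -1.22, -0.99 and -1.31, again with these 6 called. Both fits were added after the values were seen.

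A test of whether the change between 3xTgAD-BKO and 3xTgAD females differed between the tissues gave 1.68 to 2.50 for H2-Ab1, H2-Eb1 and Cd74 (lowest limma adjusted p = 0.561), with none of the 7 called against 0.123% of all genes and none at an unadjusted p under 0.05 against 9.9%. The same test for JHT against WT gave 2.07 to 3.11 for these genes together with H2-Aa (lowest limma adjusted p = 0.992). The highest value was that of H2-Aa, which was not well above background in all WT hippocampi. None of the 7 was called, against 0.0681% of all genes. H2-Aa and H2-DMb1 had an unadjusted p under 0.05 in the latter, as did 4.72% of all genes. For 3xTgAD against WT it gave -0.36 to -0.12 for H2-Ab1, H2-Eb1 and Cd74, with none called against 0.0926% and none at an unadjusted p under 0.05 against 6.75%.

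The variable genes moved together from sample to sample. Among H2-Aa, H2-Ab1, H2-Eb1 and Cd74 the correlations over the 15 samples were 0.956 to 0.993 in the hippocampus and 0.972 to 0.99 in the brain, and 0.95 to 0.989 and 0.961 to 0.987 after the group means were taken out. Without the 4 Ttr-high hippocampi they were 0.929 to 0.99 over 11 samples, and without hippocampal array 0 they were 0.946 to 0.991 over 14. Without brain sample 0 the brain values were 0.953 to 0.983. H2-DMb1 correlated with these genes at 0.796 to 0.853 in the hippocampus and 0.406 to 0.498 in the brain, and at 0.82 to 0.888 and 0.753 to 0.787 within groups. H2-DMa gave 0.128 to 0.301 in the hippocampus and 0.596 to 0.665 in the brain, and 0.231 to 0.445 and 0.473 to 0.535 within groups. The values of H2-DMa depended on the samples included, since in the hippocampus they were -0.157 to 0.105 without array 0 and 0.444 to 0.68 without the 4 Ttr-high arrays, and in the brain 0.354 to 0.459 without sample 0. For H2-DMb1 they were 0.745 to 0.81, 0.612 to 0.728 and 0.546 to 0.658 in the same order. Ciita correlated at -0.612 to -0.55 in the hippocampus and 0.518 to 0.579 in the brain, and at -0.479 to -0.401 and 0.533 to 0.655 within groups. Its hippocampal values were -0.501 to -0.44 without array 0 and -0.637 to -0.583 without the Ttr-high arrays. Its brain values rested on sample 0, and without it they were 0.083 to 0.178. These are descriptions over samples that share slides and tissue composition, and the Ciita values include probes at background.

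Marker lists of other cells are given as measured. Border macrophage markers were 8 genes such as Mrc1 and Pf4, with 6 or 7 of them well above background and Cd163 on no array. They averaged 7.38 to 8.40 in the 7 hippocampi with the deletion and 6.27 to 7.26 in the 8 without it. These values did not overlap, and 0.107% of all single genes lay higher with the deletion without overlap. No such share was computed for means of marker lists. In the brain the ranges were 7.28 to 7.95 and 7.36 to 7.75. WT 10, which was high in class II in both tissues, had 6.53 and 7.46. T cell markers (7 genes) averaged 7.34 in hippocampus 0, 6.99 in 10, 6.85 in 7, 6.60 in 13 and 6.53 in 14, against 5.72 to 6.22 in the others, and in the brain the highest were again 0 (7.41), 10 (7.25) and 14 (7.07). Cd3e, Cd4 and Lck were well above background on every array and Cd8a on none. Lck belongs to this list and, as given above, was lower in hippocampus 0 than on all other arrays. The T cell genes therefore did not all rise in that sample.

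Markers of meninges and fibroblasts had a lowest, median and highest mean of 8.66, 10.04 and 10.56 in hippocampi with the deletion and 8.28, 8.77 and 9.77 in those without it, the last in 3xTgAD male 4. In the brain they were 9.48, 9.84 and 10.07 against 9.50, 9.70 and 9.86. Endothelial markers had 10.71, 10.88 and 11.22 with the deletion and 10.26, 10.55 and 10.99 without it in the hippocampus. In the brain they had 10.72, 10.94 and 11.26 against 10.39, 10.63 and 11.18. The part of these cells in the results was not tested.

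Microglia markers (8 genes, all well above background) averaged 12.32 to 13.26 in the hippocampus and 12.23 to 12.50 in the brain. Dendritic cell markers averaged 4.41 to 4.98 in the hippocampus and 4.87 to 5.55 in the brain, with Flt3, Zbtb46 and Cd209a well above background on all 30 arrays, Itgax on 20, Ccr7 on 10, Ccl22 on 3, Clec9a on 1 and Xcr1 on none. Of 8 B cell markers, Cd79a and Fcrla were well above background on no array, Blk on 1 and Ms4a1 and Pax5 on 2 each of 30, while Cd79b was so on 29 and Cd22 on 30. The list averaged 3.78 to 4.78 in hippocampi without the deletion and 3.87 to 4.57 with it. WT 10 was the highest sample of this list in both tissues (4.78 and 5.15) and was also high in class II. B cells carry class II themselves, and these markers do not check the genotype labels, since Cd79a was not well above background in any sample with an intact locus either.

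**Figure D4:**
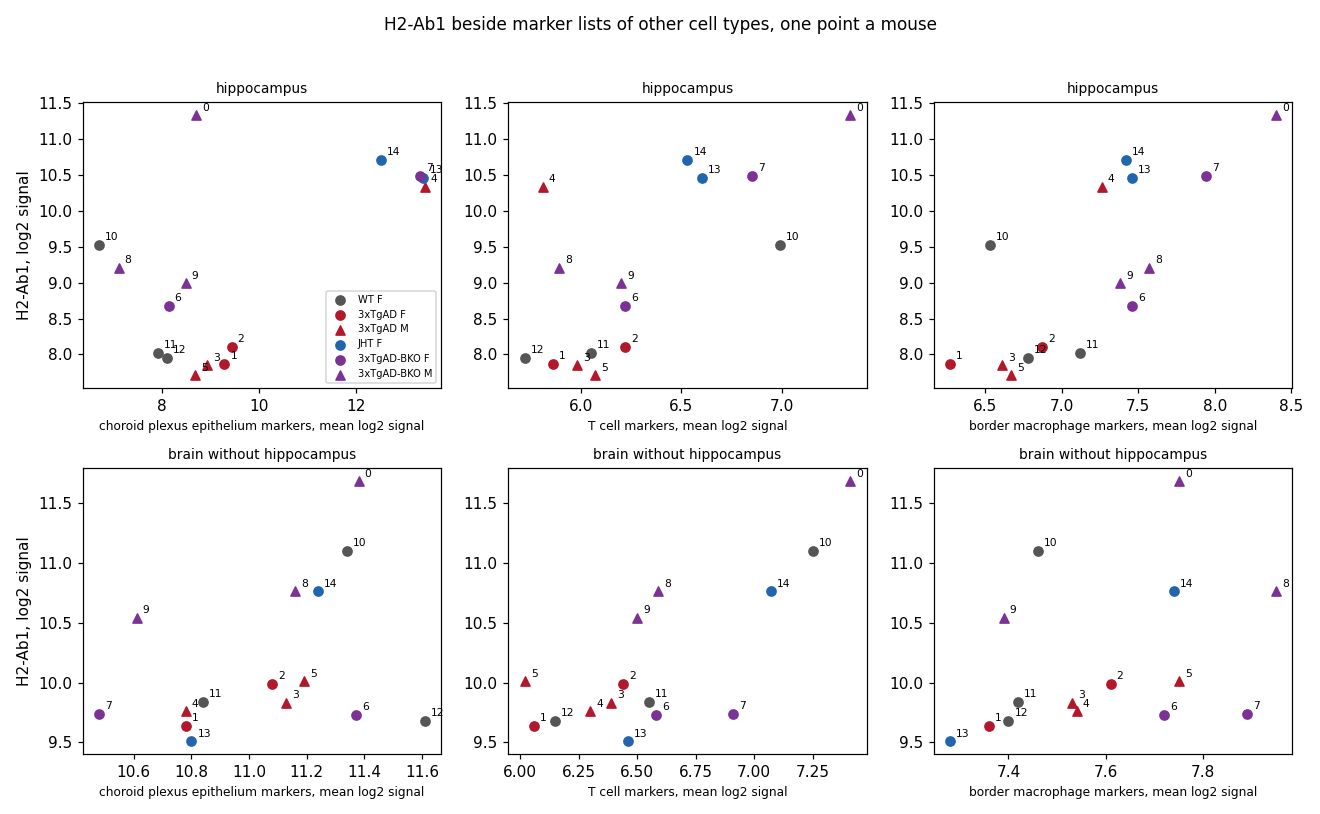
Log2 signal of H2-Ab1 (y axis) against the mean log2 signal of choroid plexus epithelium, T cell and border macrophage markers (x axes) for hippocampi (top) and the remaining brain (bottom), 1 point per sample, numbered by mouse and coloured by genotype, with circles for females and triangles for males. The 4 hippocampi with choroid plexus means above 12 all have H2-Ab1 above 10, and so has male 0 with a choroid plexus mean below 9.

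With the T cell markers as a covariate, a comparison added after the values were seen, the change of H2-Ab1 between 3xTgAD-BKO and 3xTgAD hippocampi was 0.90 in females, 0.48 in males and 0.65 over both sexes. In male brains it was 0.40 in place of 1.13, and between JHT and WT hippocampi 1.65 in place of 2.09. No gene of the 7 was called in these fits. T cell markers were high in WT 10, which has the intact locus, and low in hippocampus 4 (5.81), which was high in class II, and their part in the results was not tested.

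Of the further genes of the pathway, 32 of 33 listed genes were measured, among them the proteases of peptide processing, the promoter factors, the interferon gamma receptor, class II ubiquitin ligases and costimulatory molecules. Within each tissue, 1 passed the test in any comparison of 3xTgAD-BKO with 3xTgAD mice, where 0.37% to 2.16% of all genes passed in each. It was Irf1, the interferon-induced factor that acts on a Ciita promoter. In the brain Irf1 was 9.82 to 10.07 in the 5 samples of 3xTgAD mice and 10.35 to 10.54 in the 5 of 3xTgAD-BKO mice, a change of 0.47 (SE 0.08, limma adjusted p = 0.0122). In the hippocampus it was 10.13 to 10.27 against 10.40 to 11.21, a change of 0.57 (SE 0.12, adjusted p = 0.0483) over both sexes and 0.75 (SE 0.13, adjusted p = 0.0324) in males. The hippocampal calls held in 6 of 23 alternatives over both sexes and in 9 of 20 in males.

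Irf1 was also lower in 3xTgAD than in WT female brains (-0.64, SE 0.13, limma adjusted p = 0.0422), as was Marchf8, a ligase that marks class II for turnover (-0.89, SE 0.16, adjusted p = 0.0308). Irf1 passed in 5 and Marchf8 in 8 of 18 alternatives for this comparison. The 3xTgAD female brains were on slide 3 and the WT brains on slide 4, so slide cannot be told apart from genotype here. With the Irf1 probe used, the 3xTgAD samples lay below all samples of the other 3 genotypes in both tissues. The share of all genes with that separation was not computed. Against 3xTgAD alone, 3xTgAD-BKO samples were higher without overlap for 1.46% of all genes in the hippocampus and 2.42% in the brain. Irf1 has 2 probes that disagree, and their mean gave -0.14 over both sexes and -0.19 in males for hippocampi, and 0.22 for brains, without a call. No other gene of the list passed in the comparisons of 3xTgAD-BKO with 3xTgAD, JHT with WT or 3xTgAD-BKO with JHT. Between the tissues 7 of 32 were higher and 18 lower in the hippocampus, beside 25.1% and 26% of all genes.

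Less common class II chains were measured too. H2-Oa and H2-Ob, which form the H2-DM inhibitor H2-DO of B cells and some dendritic cells, were well above background on all 30 arrays. H2-Oa spanned 5.51 to 7.62 in the hippocampus and H2-Ob 5.53 to 6.96. H2-Ob was lower in the hippocampus than in the brain (-0.80, limma adjusted p = 2.05e-06). H2-Eb2 was above background on 1 hippocampal and 4 brain arrays, so that no difference is given. H2-DMb2, the near copy of H2-DMb1, was above background on none. No paralogue was called between genotypes.

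Glo1, a glyoxalase gene also on chromosome 17, was 14.23 to 14.46 in all 10 samples of 3xTgAD mice and 13.05 to 13.56 in all 20 others. Of 113 measured genes within 1 Mb of the class II genes, none was called between genotypes in the hippocampus. In the brain, 3xTgAD differed from WT females in Angptl4 (1.74, limma adjusted p = 0.0376) and Morc2b (-1.11, adjusted p = 0.00955), where 1.15% of all genes were called. Angptl4 passed in 8 and Morc2b in 12 of 18 alternatives. As for Irf1, slide cannot be told apart from genotype in this comparison of 3xTgAD with WT. 3xTgAD-BKO differed from 3xTgAD brains over both sexes in Angptl4 (-1.52, adjusted p = 0.00363), Morc2b (0.78, adjusted p = 0.00417) and the complement gene C2 (-0.48, adjusted p = 0.0159), where 2.16% of all genes were called. Both counts, 2 and 3 of 113, are near the shares over all genes. None of the 5 class II members on this chromosome was called in these comparisons.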

How the data were processed

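The authors deposited Agilent Feature Extraction output, in which every spot has a processed intensity, background-subtracted and detrended within the array but not normalized between arrays, and raw spot and background intensity. They also deposited a table of scores, which matched the Z score of log10 intensity within each array (largest median absolute difference 0.002543) and served as an alternative. No aligner applies, and the array is annotated on mm9.

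Control and outlier spots were left out. The log2 of the processed intensity was taken and all 30 arrays were quantile-normalized together, with each gene read from its probe of highest mean. The normalization and the choice of probe follow the study's methods, but those name raw probe intensities, which entered here only in the normexp alternative. Accessions matched 28331 of 55681 probes to symbols (RefSeq, GRCm38.p6), and 21368 genes had a symbol. Tests used limma 3.58.1 in R 4.3.3 (statmod 1.5.0, package data.table, version 1.17.8), with 6 groups of genotype and sex in each tissue, sex as a covariate over both sexes, 12 groups in 1 fit between tissues, and Benjamini-Hochberg adjustment over 36717 genes at 0.05. A bound ("at least") replaced a fold where a group was not above background. The scripts were tested on simulated data.

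The members and lists were chosen with earlier results of these data known. The genes named are the 7 members, their paralogues, pathway genes and chromosome 17 neighbours past the threshold, the 5 genes most like the members, Glo1, and genes of the marker lists, the last picked as examples after their values were seen. P-values measure only the spread between these samples, whose number limits the precision. Alternatives were scaling to the 75th percentile, normexp background correction (offset 50), the deposited scores, the mean of the probes, normalization within a tissue, a filter on dim probes (2 arrays), slide or mouse as a block, the samples in the fit, the methods' t-test, a threshold of 0.1 and leaving out each mouse number. The fits without Ttr-high hippocampi or with marker covariates and the comparison over all genotypes were added later.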

Additional observations from a re-analysis of the deposited data

Results flagged for a closer look

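Among the 28 sets of 5 samples (7 genes, 2 genotypes with both sexes and 2 tissues), 4 held a sample far from the others by Dixon's test, and chance gives about 1 in 20. All 4 were 3xTgAD hippocampus 4, a male. Its H2-Aa log2 signal was 7.21, next to 4.22 in the nearest of the other 4 samples and 3.61 at the far end, a gap of 0.831 of the whole range. H2-Ab1 was 10.33 (nearest 8.11, far end 7.71, 0.849), H2-Eb1 10.44 (8.23, 7.86, 0.858) and Cd74 9.95 (7.07, 6.41, 0.814). These 4 genes rise and fall together, so they are not 4 independent findings. The same sample was the highest of all hippocampi in Ttr (18.28), and its border macrophage markers were the highest of the intact samples (7.26). Brain sample 4 had 9.76 for H2-Ab1, within the range of its group, and the cause was not tested.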

How the results depend on the processing

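In the 19 comparisons within or between tissues other than the tissue comparison and the added one over all genotypes, members were called in 2 of 368 alternatives. Both were the methods' t-test without adjustment, with 3 genes (H2-Eb1, H2-DMb1 and Ciita; 3406 of all genes) between JHT and WT hippocampi and 2 genes (H2-Ab1 and H2-Eb1; 3053 of all genes) between 3xTgAD-BKO and 3xTgAD male brains. After adjustment it called none there. In the added comparison over all genotypes in the hippocampus, 2 members were called with all 30 arrays in one fit (H2-Aa, adjusted p = 0.0264, and H2-Eb1, 0.0452), where 750 of all genes were called in place of 225. Between the tissues, 5 members were called, 2 with the slide as a block (11352 of all genes in place of 18773), and 2 to 7 when 1 mouse number was left out, with the lowest without 3xTgAD-BKO female 6, 3 without JHT 14 and the highest without 3xTgAD-BKO male 0. With the mouse number as a replicate block it was also 5, but the numbers did not reach, for every number, the correlation above 0.1 taken as pairing. Deviations from the group means over 19488 genes had a median correlation of 0.104 for samples of one number, above 0.1 in 8 of 15 numbers, beside -0.0446 for other samples of the same group, and 5 of 15 samples correlated best with their own number. Scaling to the 75th percentile shifted the median of all genes between the tissues by 0.28, and normexp gave H2-Aa -0.48.

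Signs turned only for changes that were not called, apart from Irf1. With choroid plexus markers as a covariate, JHT against WT hippocampi gave H2-Ab1 -0.07, H2-Eb1 -0.37 and Cd74 -0.56. With T cell markers, 3xTgAD-BKO against 3xTgAD brains over both sexes gave H2-Aa -0.09, H2-Ab1 -0.06 and Cd74 -0.09, and the deletion over all genotypes in the brain gave H2-Aa -0.18, H2-Ab1 -0.17, H2-Eb1 -0.08 and Cd74 -0.19. The mean of the probes gave Irf1 -0.19 in males and -0.14 over both sexes in the hippocampus. Irf1 was past the threshold in 9 of 20 and 6 of 23 alternatives for these, and in 20 of 22 for the brain over both sexes. The causes were not tested. Groups of 2 or 3 samples and the dim probes of Ciita and H2-Aa limit what could be called.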

Other observations

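Outside the members, genes were ranked by how closely their signal resembled the mean of H2-Aa, H2-Ab1, H2-Eb1 and Cd74. The first 5 were class I genes and Tapbp. Ranked by the lower of the correlations in the 2 tissues, each over 15 samples, the first 5 of 15097 genes were H2-K2 (0.886 in the hippocampus and 0.908 in the brain), H2-Q2 (0.894 and 0.884), Tapbp (0.864 and 0.883), H2-Q10 (0.859 and 0.858) and H2-K1 (0.855 and 0.925), beside medians of 0.0266 and -0.125 over all ranked genes. Tapbp is the tapasin of the class I loading complex, and the H2-K and H2-Q genes are close copies of each other so that their probes are uncertain. All 5 lie on chromosome 17. Genes of other kinds followed, such as Serping1 at rank 8 (0.844 and 0.877) and Tns2 at rank 11 (0.832 and 0.869). The ranking includes the Ttr-high hippocampi and array 0 and was not repeated without them. The part of tissue composition in it was not tested.

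Samples of the same number were also compared between the tissues, in 7 relations with permutation tests over 15 numbers. H2-Ab1 gave Pearson's r = 0.475 (permutation p = 0.0707, adjusted 0.365) and Spearman's rho = 0.304 (permutation p = 0.267, adjusted 0.677), and r was 0.0823 without samples 0 and 14. Within slide 1 and slide 2 of the hippocampal arrays r was 0.57 and 0.304. None of the 7 passed.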
